A study of Mus musculus with 6 samples.

Results

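The endothelial and blood genes described here are 35 genes taken from a fixed list, 24 of the endothelium (Kdr, Pecam1, Cdh5, Tek, Tie1, Erg, Sox17, Sox18, Emcn, Flt1, Flt4, Fli1, Esam, Robo4, Egfl7, Eng, Dll4, Gja4, Gja5, Notch4, Ets1, Prox1, Lyve1 and Nrp1) and 11 of blood (Tal1, Lyl1, Gata1, Gata2, Klf1, Spi1, Ptprc, Csf1r, Runx1, Hba-a1 and Hbb-bs). They were chosen by name and not by a rule on a measured value, but with earlier results of these data known. All 35 were found among the 21701 protein-coding genes that were measured in the same way. Peaks of the active mark H3K27ac, the Polycomb mark H3K27me3 and the architectural protein CTCF came from distal forelimb (DFL, the future digits) and proximal forelimb (PFL, the future forearm and upper arm) of wild-type B6CBAF1 mouse embryos at E12.5, with 1 library for each mark and piece. HOXA13 and HOXD13 peaks from forelimb buds of an earlier stage were used as position lists. According to the study's methods, tissue was pooled from several embryos and the libraries were earlier data that were processed again. Both pieces were whole tissue and were not sorted. A smaller share of endothelial or blood cells and a weaker mark in each of those cells therefore cannot be told apart.

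Limb buds are vascularised by endothelial cells that enter from the trunk, and primitive red cells and macrophages reach them through these vessels. In endothelial cells, ETS family factors such as Erg, Fli1 and Ets1 act with Sox17 and Sox18 on the genes of the VEGF receptors (Kdr, Flt1 and Flt4), the angiopoietin receptor (Tek) and the junction proteins (Cdh5, Pecam1 and Esam). In blood precursors, Tal1, Lyl1, Gata2 and Runx1 act early, Gata1 and Klf1 drive the red cell programme up to the globins, and Spi1 drives the myeloid programme with Csf1r and Ptprc among its products.

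The depth of the lists sets what can be seen. H3K27ac gave 59804 regions over 36.5 Mb in DFL and 69503 regions over 43.98 Mb in PFL, and H3K27me3 gave 9083 regions in DFL and 13873 in PFL. Summit pileup, the number of fragments over the highest base of a peak, was solved from the deposited fold and p-value and divided by the lowest background of its list, which was 12.49 fragments in DFL and 11.9 in PFL for H3K27ac. This multiple is called the level below. The weakest H3K27ac summit a list could hold stood at 25 fragments, a level of 2.001, in DFL and at 24 fragments, a level of 2.02, in PFL. For H3K27me3 the DFL library was the shallower, with a lowest background of 3.06 fragments in DFL and 4.75 in PFL. Limb genes were used to check the tissue labels. Of 8 distal limb genes, 5 had more H3K27ac within 50 kb in DFL and 1 (Sall1) more in PFL, with 91568 bp covered in DFL and 61682 bp in PFL over the list, and of 8 proximal limb genes 3 had more in PFL and 1 (Hoxa11) more in DFL, with 57434 bp in DFL and 63726 bp in PFL.

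H3K27ac was present at most endothelial promoters, and those marked in 1 piece alone were mostly marked in PFL. Promoters were taken as marked if any start site of the gene's GENCODE basic transcripts had a region inside 2 kb. The annotated 5′ end of the gene was not always among these sites. Of the 24 endothelial genes, 1 (Tie1) was marked in DFL alone, 6 (Sox17, Sox18, Flt4, Esam, Robo4 and Dll4) in PFL alone and 17 in both pieces. The share in PFL alone was 25% (Wilson 95% interval 12 to 44.9%, n = 24 genes, counting error only), against 3.59% of all 21701 genes, and the share in DFL alone was 4.17% (0.739 to 20.2%), against 1.16% of all genes. Of the 11 blood genes, 2 (Gata2 and Ptprc) were marked in DFL alone, 0 in PFL alone, 4 (Tal1, Lyl1, Klf1 and Runx1) in both and 5 in neither. Promoters marked in both pieces made up 60% of the 35 genes and 58% of all genes. Among all genes, weakly marked promoters were those most often found in a single piece, so the level has to be read beside these counts.

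**Figure D1:**
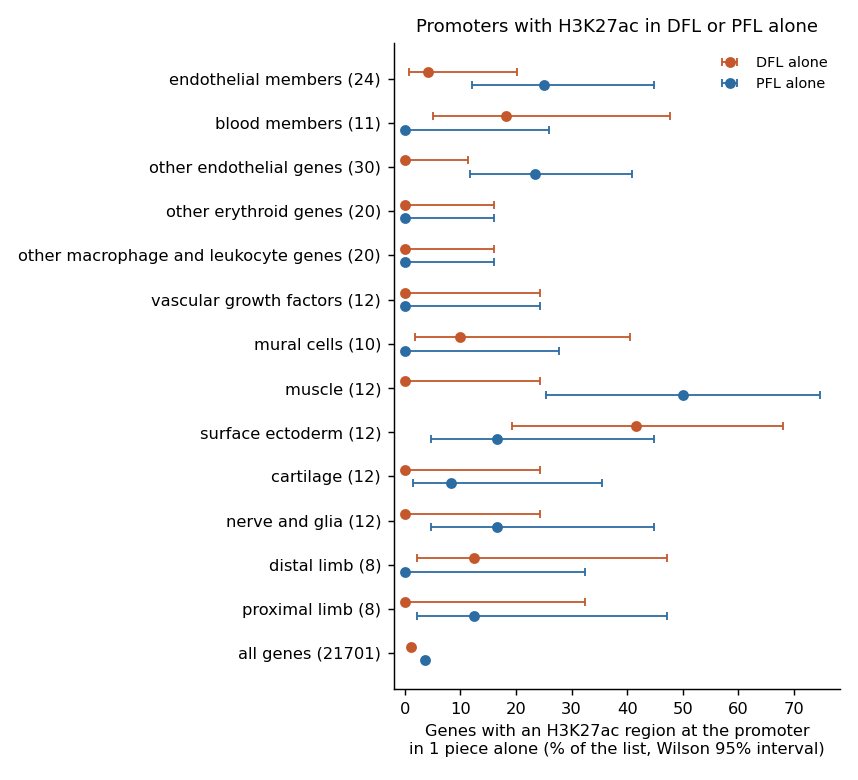
Share of genes whose promoter carried an H3K27ac region in DFL alone (orange) or in PFL alone (blue), in percent of each list, with Wilson 95% intervals that cover counting error only; the number of genes stands in parentheses. The endothelial genes of this report and the 30 other endothelial genes both had over 20% of promoters in PFL alone, against 3.59% of all genes, and the muscle list 50%.

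The promoters marked in 1 piece were all weak. Sox18, a SOX factor of endothelial and lymphatic precursors, had no region in DFL and a summit of 42 fragments, a level of 3.54, in PFL. Its relative Sox17, which is needed for arterial identity, had no region in DFL and 28 fragments, a level of 2.36, in PFL. Flt4, the receptor for VEGF-C, had no region in DFL and 31 fragments (2.61) in PFL. Esam, a junction adhesion molecule, reached 44 fragments (3.70) in PFL alone. Robo4, a guidance receptor of vessels, reached 37 fragments (3.11) in PFL alone, and Dll4, the Notch ligand of sprouting tip cells, reached 29 fragments (2.44). At the local background of each site, a DFL summit would have needed a level between 2.001 (Sox17, Flt4, Robo4 and Dll4) and 2.32 (Esam) to be listed. The PFL levels exceeded these minimums by 1.18 times at Sox17 and by 1.70 times at Sox18. The missing DFL region thus bounds the DFL level from above and does not show that the mark was absent.

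The promoters marked in DFL alone were as weak. Tie1, an orphan partner of the angiopoietin receptor, had 28 fragments, a level of 2.24, in DFL and no region in PFL, where 24 fragments would have been listed. Gata2, a factor of blood stem cells and endothelium, had 27 fragments (2.16) in DFL. Ptprc, which encodes the leukocyte surface protein CD45, had 40 fragments (3.20) in DFL, against no region in PFL, where a level of 2.27 would have been listed. Grouped by the higher of their levels, a grouping chosen after the values were seen, 11 endothelial promoters were below a level of 4, of which 6 were in PFL alone and 1 in DFL alone. Among the 1351 genes of that class, 45.6% were in PFL alone and 15.8% in DFL alone. All 9 single-piece promoters of the 35 genes were in this class. The 2 blood promoters in it were both in DFL alone. The part of the low level in these counts was not tested.

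Promoter sequences of 5 of these genes are shown because their H3K27ac region was found in a single piece. RefSeq promoter windows (GRCm38.p6, the mm10 build, 250 bases before to 50 after a start) matched 25 of the 35 genes with 34 windows. Each is written 5′ to 3′ along the gene, in lower case, with the motifs found in capitals.
Dll4 (chr2:119325534-119325833, plus strand, PFL alone): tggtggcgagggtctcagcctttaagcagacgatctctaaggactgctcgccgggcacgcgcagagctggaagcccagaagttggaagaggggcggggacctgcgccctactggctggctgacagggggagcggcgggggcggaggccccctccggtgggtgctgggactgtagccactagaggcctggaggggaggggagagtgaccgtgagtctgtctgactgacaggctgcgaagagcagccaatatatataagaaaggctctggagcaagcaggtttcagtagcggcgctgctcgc
Flt4 (chr11:49609429-49609728, plus strand, PFL alone): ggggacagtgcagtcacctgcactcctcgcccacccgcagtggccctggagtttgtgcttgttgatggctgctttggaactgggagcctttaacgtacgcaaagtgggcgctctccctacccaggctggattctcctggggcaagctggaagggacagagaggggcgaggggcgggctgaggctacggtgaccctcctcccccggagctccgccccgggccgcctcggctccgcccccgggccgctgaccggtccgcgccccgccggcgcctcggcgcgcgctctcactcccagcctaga
Robo4 (chr9:37401722-37402021, plus strand, PFL alone): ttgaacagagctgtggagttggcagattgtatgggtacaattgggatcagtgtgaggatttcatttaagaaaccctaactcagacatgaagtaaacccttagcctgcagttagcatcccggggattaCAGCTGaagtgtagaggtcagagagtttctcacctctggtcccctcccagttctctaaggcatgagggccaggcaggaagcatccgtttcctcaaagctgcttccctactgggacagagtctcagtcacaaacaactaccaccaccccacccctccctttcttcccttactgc
Tie1 (chr4:118489800-118490099, minus strand, DFL alone): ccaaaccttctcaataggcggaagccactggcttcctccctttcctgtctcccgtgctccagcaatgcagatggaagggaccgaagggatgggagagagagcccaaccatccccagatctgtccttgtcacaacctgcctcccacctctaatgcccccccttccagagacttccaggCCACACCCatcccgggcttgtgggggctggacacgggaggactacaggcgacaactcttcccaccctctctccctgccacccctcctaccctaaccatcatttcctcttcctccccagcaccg
Ptprc (chr1:138175077-138175376, minus strand, DFL alone): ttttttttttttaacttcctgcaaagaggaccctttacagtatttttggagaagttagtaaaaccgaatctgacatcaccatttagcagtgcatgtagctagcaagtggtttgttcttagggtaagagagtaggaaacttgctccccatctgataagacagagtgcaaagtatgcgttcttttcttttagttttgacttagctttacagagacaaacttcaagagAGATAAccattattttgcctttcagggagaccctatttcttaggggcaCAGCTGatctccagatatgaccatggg

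Motifs were searched on both strands. CCGGAAGT stood for the ETS family, AGATAA for GATA factors, the letters CAGCTG for the E-box, CCACACCC for KLF factors, and CTCGTAAA or CTCATAAA for HOX13. None of these motifs contains another. The capitals mark an E-box in Robo4, a KLF motif in Tie1 and a GATA motif and an E-box in Ptprc, and no motif was found in the Dll4 and Flt4 windows. The ETS letters were in 0 of the 34 windows, against 3.89% of all 32851 promoter windows. The GATA letters were in 5 of the 34 windows (14.7%; Erg, Hbb-bs, Ptprc, Tal1 and Tek), against 11.18% of all windows, and the E-box in 5 of the 34 (14.7%; Egfl7, Gata2, Gja4, Ptprc and Robo4), against 16.3%. The KLF letters were in 2 windows (5.88%; Hbb-bs and Tie1), against 3.56%, and CTCATAAA was in 1 (2.94%; Runx1), against 0.916%. CTCGTAAA was in 0 member windows, against 0.131%. The median window of the members held 58.3% G and C, against 52.7% over all windows. A match is a description of the letters only.

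Most marked endothelial promoters had a low H3K27ac level, and those of the ETS factor genes had the highest. The median level was 4.16 over the 17 endothelial genes with a DFL summit and 5.05 over the 23 with a PFL summit, against 15.2 in DFL and 16.4 in PFL over all marked genes. In DFL, 12 of those 17 lay below the 25th percentile of all marked genes, and in PFL 18 of those 23 did. Fli1, an ETS factor of endothelium and megakaryocytes, had 276 fragments, a level of 22.1, in DFL and 329 fragments (27.7) in PFL. Its neighbour on chromosome 9, Ets1, had 224 fragments (17.9) in DFL and 174 (14.6) in PFL. At the annotated 5′ end alone Ets1 was marked in PFL alone, so its DFL level was measured at another start site. Erg, the ETS factor that maintains the endothelial state, had 232 fragments (18.6) in DFL and 207 (17.4) in PFL. These 3 promoters stood between percentiles 43.4 and 91.9 of all marked genes in both pieces.

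Other promoters of middling level were those of Nrp1, a co-receptor of VEGF and semaphorins, with 160 fragments (12.8) in DFL and 136 (11.4) in PFL, and of Gja5, an arterial connexin, with 127 (10.2) in DFL and 147 (12.4) in PFL. Runx1, the factor that starts definitive blood formation, had 136 fragments (10.9) in DFL and 133 (11.196) in PFL. Both Runx1 levels came from another start site, since no region lay within 2 kb of its annotated 5′ end. Klf1, a red cell factor, had 105 (8.41) in DFL and 89 (7.49) in PFL, and Egfl7, a secreted vessel protein, had 93 (7.44) in DFL and 85 (7.16) in PFL. For these 5 genes the exact 95% counting interval of the DFL to PFL ratio included 1. Receptor and junction genes follow. Kdr, the main VEGF receptor, had 57 fragments (4.56) in DFL and 60 (5.05) in PFL. Cdh5, which encodes VE-cadherin, had 52 (4.16) in DFL and 60 (5.05) in PFL. Tek had 40 (3.20) in DFL and 50 (4.21) in PFL, and Flt1, the decoy VEGF receptor, had 34 (2.72) in DFL and 32 (2.69) in PFL. The remaining endothelial promoters marked in both pieces, Eng, Gja4, Emcn, Notch4, Pecam1, Prox1 and Lyve1, had levels from 2.56 to 4.64 in DFL, Lyve1 having no DFL summit within 2 kb, and from 2.86 to 8.08 in PFL.

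**Figure D2:**
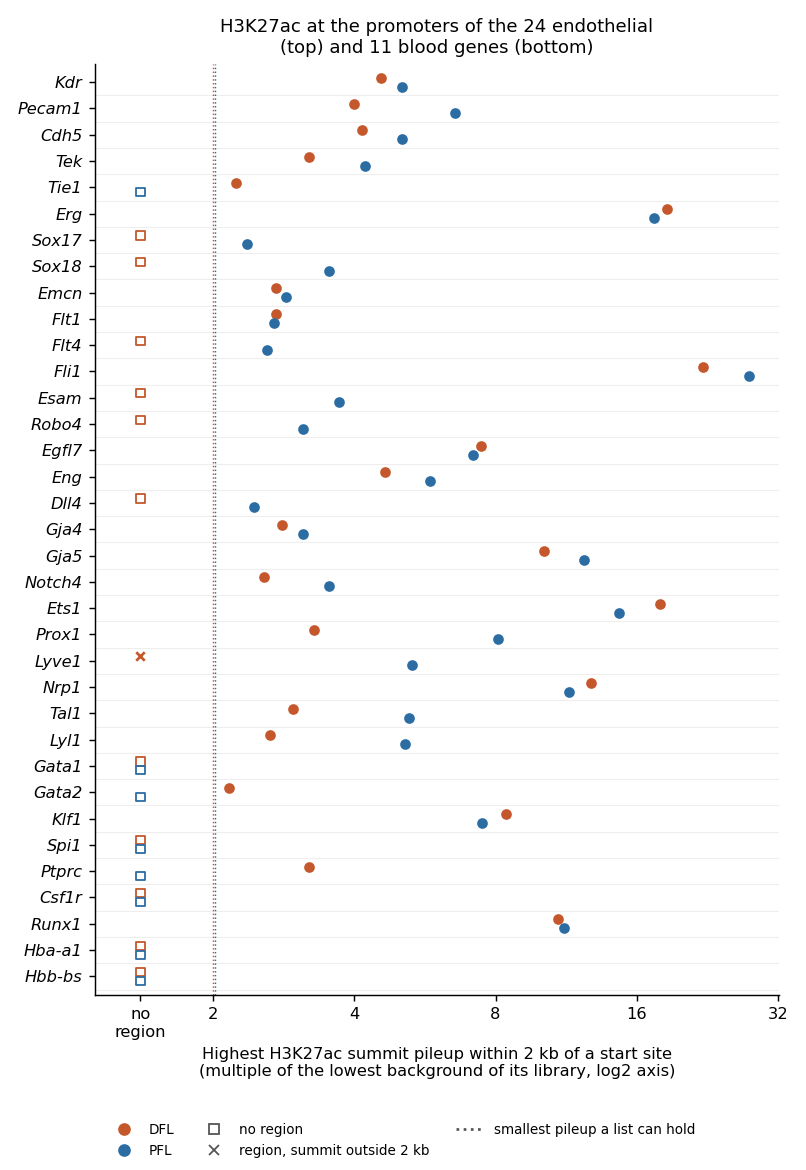
H3K27ac level at the promoter of each of the 35 genes in DFL (orange) and PFL (blue), as the highest summit pileup within 2 kb in multiples of the lowest background of its library, on a log2 axis; open squares mark promoters with no region and the cross marks a region whose summit lay outside 2 kb. Erg, Fli1, Ets1, Gja5, Nrp1 and Runx1 stood above 10 in both pieces, while most endothelial genes stood below 6; the dotted lines mark the weakest summit each list could hold.

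The DFL to PFL ratio of the levels could be formed for 20 of the 35 genes. Over all 12527 genes with a level in both pieces its median was 0.901 (log2 −0.15), and a promoter was called when it departed from that median by at least 1.5 times. Of the 20 genes, 0 were called higher in DFL, against 2.38% of all genes, and 3 higher in PFL, against 3.32% of all genes. The median log2 ratio of the 16 endothelial genes was −0.22, and 9 of the 16 lay below the median of all genes. Promoters marked in a single piece have no ratio and are left out of these values, among them 7 of the 24 endothelial genes.

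The genes called were Prox1, Tal1 and Lyl1. Prox1, the homeobox gene that sets lymphatic identity and is also active in liver, muscle and nerve cells, had 41 fragments, a level of 3.28, in DFL and 96 fragments (8.08) in PFL, a ratio of 0.406 (exact 95% counting interval 0.275 to 0.591). Its log2 ratio of −1.30 was at percentile 0.439 of all genes with a ratio. Lyl1, a basic helix-loop-helix factor of blood stem cells and endothelium, had 33 fragments (2.64) in DFL and 61 (5.14) in PFL, a ratio of 0.514 (0.326 to 0.798). Tal1, a factor of early blood and vessel formation, had 37 fragments (2.96) in DFL and 62 (5.22) in PFL, a ratio of 0.568 (0.367 to 0.866). Pecam1, the adhesion molecule CD31, came close, with 50 fragments (4.003) in DFL and 78 (6.57) in PFL, a ratio of 0.610 (0.419 to 0.881). These intervals cover the counting of fragments in 1 library per piece and not the spread between embryos.

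Within 50 kb of the genes, H3K27ac covered more sequence in PFL, as it did over all genes. Over the 24 endothelial windows DFL regions covered 72976 bp and PFL regions 101713 bp, with 120 regions of median length 462 bp in DFL and 156 of median length 501.5 bp in PFL. Over the 11 blood windows the sums were 36431 bp in DFL and 41120 bp in PFL. The windows of all genes summed to 64118793 bp in DFL and 74098657 bp in PFL. Covered length was called different when it was at least 1.5 times as long in 1 piece and longer by at least 1000 bp. More was covered in DFL at 1 endothelial gene (Nrp1) and 1 blood gene (Ptprc), against 1.34% of all genes. More was covered in PFL at 7 endothelial genes (Kdr, Pecam1, Erg, Esam, Robo4, Egfl7 and Prox1) and 3 blood genes (Tal1, Spi1 and Csf1r), against 9.68% of all genes. The 7 of 24 amount to 29.2% (14.9 to 49.2%). The covered length was shorter in DFL at 20 of the 24 endothelial genes and 8 of the 11 blood genes, against 64.4% of all genes. The median difference, DFL minus PFL, was −991 bp over the endothelial genes and −268 bp over the blood genes, against −243 bp over all genes.

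With PFL lengths scaled to the genome-wide DFL length, 4 of the 35 genes stayed more covered in PFL, against 4.198% of all genes, and Kdr, Esam, Prox1 and Csf1r were those 4. The windows of 15 of the 35 genes held no start of another protein-coding gene, and the others held up to 6. The windows of Fli1 and Ets1, whose 5′ ends lie 93360 bp apart, overlap and share regions. In 4 classes of genes by the summed DFL and PFL covered length, the 8 members of the highest class (10555 bp and over) included 4 that were more covered in PFL, against 4.64% of the genes in that class. In the class from 3557 to 6596.5 bp, 4 of 7 members were more covered in PFL, against 19.3%. In the remaining covered classes it was 1 of 13, against 9.02%, and 1 of 6, against 13.97%.

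**Figure D3:**
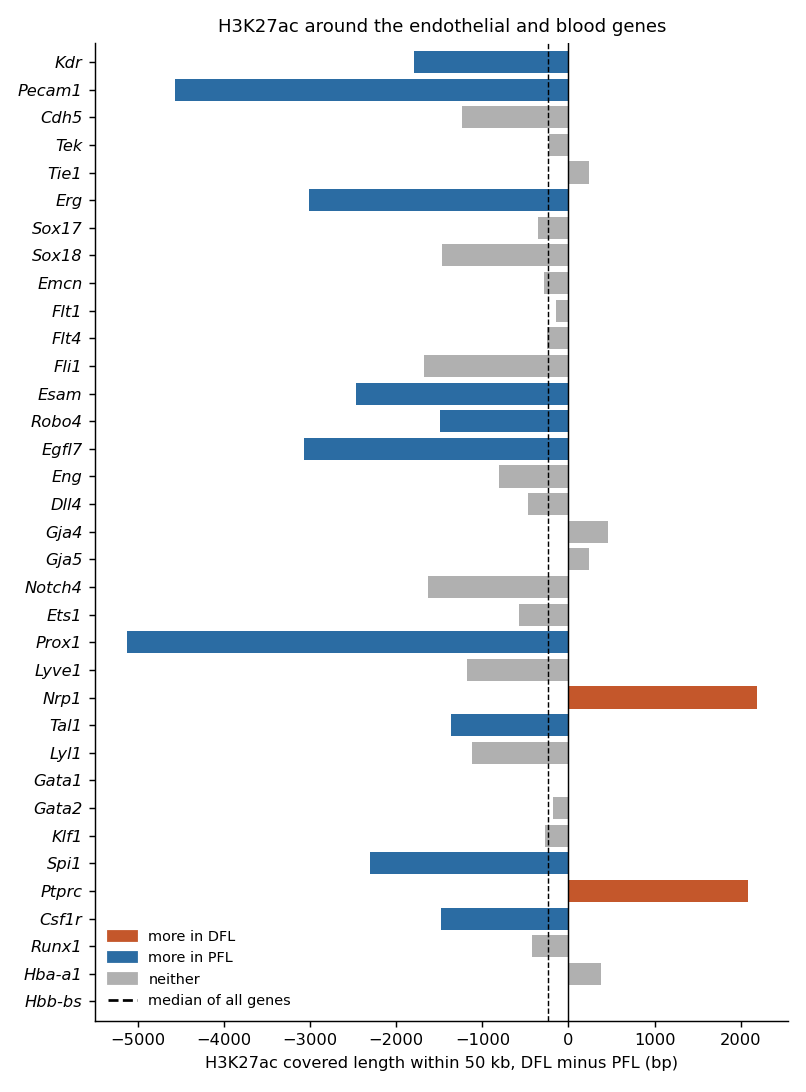
DFL minus PFL length covered by H3K27ac regions within 50 kb of each gene, in bp; orange bars were more covered in DFL, blue bars more covered in PFL (at least 1.5 times and 1000 bp), and the dashed line is the median of all genes at −243 bp. Prox1, Pecam1, Egfl7 and Erg reach −3020 bp or below, while Nrp1 and Ptprc lie above 2000 bp.

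Around Prox1 (chr1:190118035-190170714, minus strand) H3K27ac covered 499 bp in DFL, in 1 region, and 5633 bp in PFL, in 7 regions. The DFL region, at the promoter, overlapped the PFL promoter region of 2110 bp. The other 6 PFL regions had no DFL counterpart. They lay at −4802 bp, upstream of the start, between 8400 and 9438 bp downstream, and, inside an intron, at 42141 and 43809 bp downstream, with levels from 2.61 to 4.38. None of the 7 PFL regions overlapped a HOX13 region. The difference of −5134 bp was at percentile 0.111 of all genes.

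Around Pecam1 (chr11:106654217-106750628, minus strand) H3K27ac covered 6213 bp in DFL and 10788 bp in PFL. Regions at the promoters of Polg2 and of Ddx5 and Cep95 had counterparts in both pieces. PFL had intronic regions 21905 and 23000 bp downstream of the start, with levels of 3.87 and 3.96, and a region at −12445 bp, in Milr1, with a level of 4.12, that DFL lacked (negative distances are upstream). The Pecam1 level given above was measured at an internal start site. At the annotated 5′ end DFL had no region and PFL had a weak one with a level of 2.44, which was also within 2 kb of a start of Milr1. Around Kdr (chr5:75932827-75978458, minus strand), which had no other gene in its window, DFL covered 1513 bp and PFL 3303 bp. PFL had a region at −35957 bp (3.96) that DFL lacked, and DFL had an intronic region at 37194 bp (3.28) that PFL lacked.

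Around the junction gene Esam DFL covered 2404 bp and PFL 4873 bp, and around Robo4 DFL covered 1938 bp and PFL 3434 bp. For Erg the lengths were 3913 bp in DFL and 6933 bp in PFL, for Egfl7 4626 bp in DFL and 7693 bp in PFL, and for Tal1 1309 bp in DFL and 2669 bp in PFL. The macrophage genes Csf1r, the receptor for CSF1, and Spi1, which encodes PU.1, had no H3K27ac at their promoters. Csf1r had 770 bp in DFL and 2251 bp in PFL within 50 kb, but only 1 of the 5 PFL regions lay in Csf1r, in an intron 8046 bp downstream and in PFL alone (level 3.62), and the other 4 lay in introns of the neighbouring Pdgfrb, a pericyte and mesenchymal receptor. Spi1 had 4365 bp in DFL and 6675 bp in PFL. The PFL region 432 bp downstream of the annotated 5′ end of Spi1 (level 3.45) lay outside 2 kb of its basic transcript start, and with the annotated 5′ end in its place Spi1 was marked in PFL alone.

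Nrp1 and Ptprc ran the other way. Around Nrp1 (chr8:128358604-128503363, plus strand) DFL had 8 regions covering 4431 bp and PFL 3 covering 2242 bp. The 3 promoter regions were shared. The 5 others, all intronic, were found in DFL alone, at 12821, 13436, 26059, 26664 and 43204 bp, and 4 of the 5 overlapped a HOX13 region. The strongest, at 26664 bp, had 90 fragments, a level of 7.20, and had the largest −log10 q, 27.3, of the DFL-alone regions near the 35 genes that lay away from other promoters. The difference of 2189 bp was at percentile 99.7 of all genes. Around Ptprc (chr1:138062861-138175708, minus strand) DFL had 9 regions covering 4023 bp and PFL 3 covering 1936 bp. All 3 PFL regions had a DFL counterpart. The DFL-alone regions had levels from 2.96 to 4.32. A shared intronic region, with its summit 39207 bp downstream in DFL and 39348 bp in PFL, stood at a level of 5.28 in DFL and 7.997 in PFL and overlapped a HOX13 region.

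**Figure D4:**
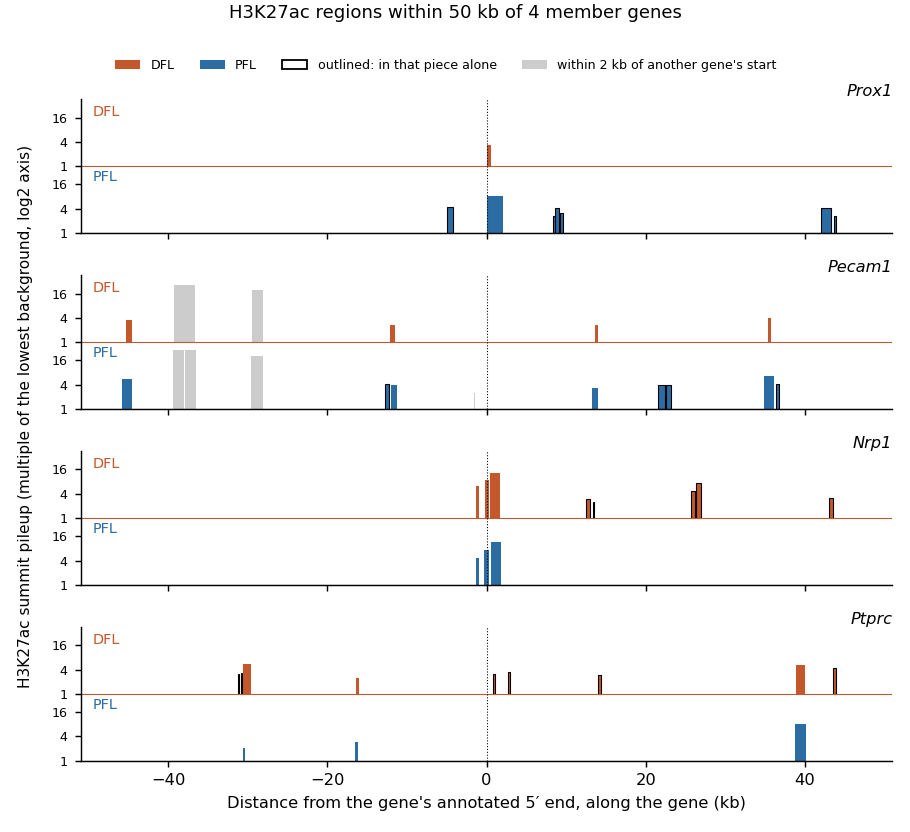
H3K27ac regions within 50 kb of Prox1, Pecam1, Nrp1 and Ptprc, drawn to scale by distance from the annotated 5′ end along the gene in kb, with bar height the summit pileup in multiples of the lowest background on a log2 axis (DFL above in orange, PFL below in blue). Outlined regions were found in that piece alone and grey regions lay within 2 kb of another gene's start; Prox1 had 1 DFL and 7 PFL regions and Nrp1 8 DFL and 3 PFL regions.

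The 300 bases around the summit of the strongest DFL-alone region of Nrp1 and of 2 PFL-alone regions outside genes, at Prox1 and Kdr, are given as examples. Other regions found in 1 piece also lay around each of these genes. The Prox1 stretch lay inside an H3K27me3 region found in PFL alone, with an H3K27me3 level of 29.3. Its H3K27ac level was 4.38. The sequences were read from GRCm38.p6 and are written along the gene, with motifs of the list above in capitals.
Nrp1 intron (chr8:128385118-128385417, plus strand, DFL alone): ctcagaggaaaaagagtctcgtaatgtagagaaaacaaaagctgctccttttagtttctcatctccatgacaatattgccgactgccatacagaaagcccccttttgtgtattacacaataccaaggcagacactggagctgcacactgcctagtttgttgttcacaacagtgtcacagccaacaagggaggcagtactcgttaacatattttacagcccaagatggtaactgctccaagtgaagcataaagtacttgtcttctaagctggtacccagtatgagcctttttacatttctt
Prox1 upstream (chr1:190175366-190175665, minus strand, PFL alone): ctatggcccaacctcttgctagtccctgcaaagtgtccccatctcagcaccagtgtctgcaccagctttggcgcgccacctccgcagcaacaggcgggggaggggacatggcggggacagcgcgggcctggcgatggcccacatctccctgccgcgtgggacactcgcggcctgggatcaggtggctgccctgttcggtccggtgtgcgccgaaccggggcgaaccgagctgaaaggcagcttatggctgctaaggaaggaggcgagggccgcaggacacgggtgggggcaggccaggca
Kdr upstream (chr5:76014265-76014564, minus strand, PFL alone): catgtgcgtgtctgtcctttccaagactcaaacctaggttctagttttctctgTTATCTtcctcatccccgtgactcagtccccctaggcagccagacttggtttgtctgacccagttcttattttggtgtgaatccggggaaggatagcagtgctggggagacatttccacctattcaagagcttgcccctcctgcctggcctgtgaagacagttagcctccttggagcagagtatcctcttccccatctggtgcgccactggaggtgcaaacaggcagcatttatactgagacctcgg
The Kdr region held a GATA motif and the others held none of the motifs, the HOX13 letters included. Of the 96 DFL regions near the 35 genes and away from any promoter, 16 (16.7%) held the GATA letters and 19 (19.8%) the E-box, against 11.99% and 20.5% of all DFL regions off promoters. Of the 119 PFL regions, 19 (15.97%) held the GATA letters and 31 (26.1%) the E-box, against 12.2% and 20.8%. The ETS letters were in 0 of either set, against 0.463% of the DFL and 0.367% of the PFL regions off promoters.

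H3K27ac regions at the genes' own promoters were often found in a single piece, while regions away from promoters stood near the share of the whole lists. Of the 44 PFL regions at the members' promoters, 19 had no DFL counterpart (43.2%, Wilson 29.7 to 57.8%), against 11.3% of all PFL regions at promoters. Of the 28 DFL regions there, 4 had no PFL counterpart (14.3%, 5.70 to 31.5%), against 4.88% of all DFL regions at promoters. The members' promoter regions were also weaker. Their median level in PFL was 4.17, against 12.63 over all PFL regions at promoters. In DFL their median level of 3.64 was likewise below that of all DFL regions at promoters. The part of this lower level in the shares at promoters was not tested. Away from any promoter, 30 of 96 DFL regions had no PFL counterpart (31.2%, 22.9 to 41.1%), against 36.4% of the whole list, and 57 of 119 PFL regions had no DFL counterpart (47.9%, 39.1 to 56.8%), against 48.6%.

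H3K27me3 marked many of the same promoters, in both pieces. Of the 35 genes, 10 carried it in both pieces (Kdr, Sox18, Flt1, Flt4, Esam, Dll4, Prox1, Tal1, Klf1 and Runx1), against 16.2% of all genes. In DFL alone it marked 0, against 0.475% of all genes, and in PFL alone 4 (Erg, Sox17, Gja4 and Nrp1), against 4.01% of all genes. At the annotated 5′ end alone, Ets1 carried H3K27me3 in both pieces, and Tal1 and Runx1 in neither. Without regions common to 6 lists, Klf1 carried H3K27me3 in DFL alone and Gja4 in neither piece. The H3K27ac states of these 2 genes changed in the same way at that setting. Polycomb holds developmental genes silent in cells that do not use them, and in a mixed tissue H3K27ac and H3K27me3 at a promoter can come from different cells.

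The H3K27me3 levels were nearly equal in the pieces. Dll4 had 83 fragments, a level of 27.1, in DFL and 129 fragments (27.2) in PFL. Flt4 had 81 (26.4) in DFL and 130 (27.4) in PFL, Kdr had 81 (26.4) in DFL and 118 (24.9) in PFL, and Tal1, with the highest level, had 102 (33.3) in DFL and 179 (37.7) in PFL. The log2 ratios of the 10 genes ran from −0.42 at Runx1 to 0.09 at Kdr, with a median of −0.11, against −0.10 over all 3462 genes with a level in both pieces. Of the 4 promoters in PFL alone, Erg, Gja4 and Nrp1 were weak, with levels of 7.37, 6.95 and 7.80. Sox17 had 148 fragments (31.2) in PFL on a local background 18.1 times the lowest, and a DFL summit at that background would have needed a level of 27.4. For Nrp1 the PFL level was below the 7.83 a DFL summit would have needed, so the difference was not detectable at this depth.

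**Figure D5:**
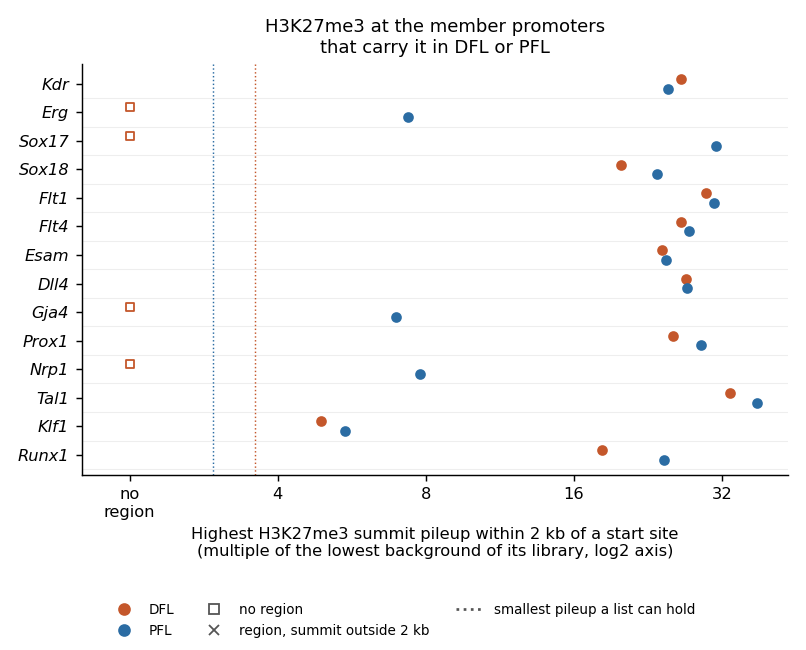
H3K27me3 level at the 14 promoters that carried the mark in DFL (orange) or PFL (blue), as the highest summit pileup within 2 kb in multiples of the lowest background of its library, on a log2 axis; open squares mark no region and dotted lines the weakest summit each list could hold. In 9 of the 10 promoters marked in both pieces the DFL and PFL levels were between 18.3 and 37.7, and Klf1 stood near 5.

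In DFL, 6 of the 35 genes (Kdr, Flt1, Prox1, Tal1, Klf1 and Runx1) had both H3K27ac and H3K27me3 within 2 kb of a start site, against 8.84% of all genes. In PFL 14 did, against 12.8% of all genes. The regions of the marks did not have to overlap or lie at the same start. At the annotated 5′ end alone, Tal1 had H3K27ac in both pieces and H3K27me3 in neither. The 8 added in PFL were the 4 with H3K27me3 in PFL alone (Erg, Sox17, Gja4 and Nrp1) and 4 with H3K27ac in PFL alone and H3K27me3 in both pieces (Sox18, Flt4, Esam and Dll4). All 8 rest on a region listed in PFL alone. Its level was from 0.995 times (H3K27me3 at Nrp1) to 1.70 times (H3K27ac at Sox18) what a DFL summit would have needed. The counts of 6 and 14 were not corrected for depth. Within 50 kb, 11 genes (Kdr, Erg, Sox17, Flt1, Flt4, Dll4, Gja4, Ets1, Prox1, Tal1 and Gata2) had more H3K27me3 covered in PFL, against 9.91% of all genes, and 0 in DFL, against 0.0553%. With PFL lengths scaled to the DFL total, 1 gene was more covered in PFL and 1 in DFL. Runx1 had 0 bp in either piece within 50 kb of its distal 5′ end, since its H3K27me3 lay at an internal start.

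CTCF sites near the genes were shared. Of 165 DFL sites within 50 kb, 15 had no PFL counterpart (9.09%, 5.59 to 14.5%), and of 161 PFL sites 11 had no DFL counterpart (6.83%, 3.86 to 11.8%), against 11.3% of all DFL and 8.21% of all PFL sites. The number of sites per window ran from 1 to 10 in DFL, was the same in both pieces for 17 of the 35 genes and differed by at most 2. A CTCF site lay at the promoter of 13 genes, against 34.8% of all genes.

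HOXA13 or HOXD13 regions lay at the promoters of 12 of the 35 genes (Kdr, Erg, Flt1, Fli1, Egfl7, Gja4, Ets1, Prox1, Nrp1, Gata2, Ptprc and Runx1), against 37.5% of all genes. The strongest were at Erg, with a level of 16.1 for HOXA13 and 22.6 for HOXD13, and at Fli1, with 13.6 for HOXA13 and 16.2 for HOXD13. At Ptprc the summits, 2600 bp downstream of the annotated 5′ end for HOXA13 and 2653 bp for HOXD13, had levels of 11.6 for HOXA13 and 12.1 for HOXD13. The others stood between 2.72 and 5.90. Within 50 kb there were 137 HOX13 regions, from 0 at Flt4, Tal1 and Hbb-bs to 10 at Lyl1. Of the 137, 34.3% (26.9 to 42.6%) lay in a DFL H3K27ac region and 31.4% (24.2 to 39.6%) in a PFL one, against 28.3% and 26.8% of all HOX13 regions. The Wilson intervals for the members include both values.

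The globin genes, which fill the red cells, showed no H3K27ac region at their promoters. Hbb-bs had 0 bp of H3K27ac within 50 kb in DFL and in PFL. Hba-a1 had 1870 bp in DFL and 1492 bp in PFL, all in the neighbouring gene Nprl3. Besides the Nprl3 promoter these included 2 weak intronic regions at −39902 and −27687 bp from Hba-a1, found in DFL alone, with levels of 3.04 and 2.64. Both globins have near-identical neighbouring copies, and reads that match more than 1 copy were removed by the mapping quality filter, so their values are uncertain. Gata1, which is required for red cells, had no H3K27ac at its promoter, and its window was covered over 1354 bp in DFL and 1363 bp in PFL.

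Other lists put these values in context. Of 30 other endothelial genes, 0 were marked at the promoter in DFL alone, 7 (Cldn5, Sox7, Aplnr, Cd34, Adgrf5, Adgrl4 and Cd93) in PFL alone and 17 in both. By covered length 0 had more in DFL and 11 more in PFL. Cd93, a cell surface lectin of endothelium, had 422 bp in DFL and 4482 bp in PFL, and Aplnr, the apelin receptor, had 217 bp in DFL and 2859 bp in PFL. At the other end Hey1, a Notch target, had 3359 bp in DFL and 2581 bp in PFL. Of 20 other erythroid genes and 20 other macrophage and leukocyte genes, 0 were marked in 1 piece alone, 10 and 5 were marked in both, and 2 and 3 had more covered in PFL. Of 12 vascular growth factor genes, 11 were marked in both pieces. Vegfa stood at a level of 23.8 in DFL and 21.97 in PFL, Angpt2 had 2569 bp in DFL and 516 bp in PFL, and Pgf had 4877 bp in DFL and 10217 bp in PFL.

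Genes of other cell types also differed between the pieces. Of 12 muscle genes, 0 were marked in DFL alone, 6 in PFL alone and 8 had more covered in PFL, with 19664 bp covered in DFL and 40620 bp in PFL over the list. Of 12 surface ectoderm genes, 5 were marked in DFL alone and 2 in PFL alone. Of 10 mural cell genes, which mark the pericytes and smooth muscle around vessels, 4 of the 7 with a level in both pieces were past 1.5 times higher in PFL. In the mural list 1 gene (Kcnj8) was marked in DFL alone. The part of these other lists in the endothelial values was not tested.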

How the data were processed

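ChIP-seq peak lists of H3K27ac, H3K27me3 and CTCF in DFL and PFL were used, with 2 lists of HOXA13 and HOXD13 that belong to no sample of the series. Per the study's methods, the authors trimmed reads with Cutadapt, aligned them to mm10 with bowtie2, kept mapping qualities of 30 and above and called peaks with MACS2 without an input library at a q of 0.05. The settings for H3K27me3 are stated only among the general ChIP settings. The deposited values used were the fold (a ratio of pileup to local background, 1 added to each), the −log10 p-value and the −log10 q-value of each summit.

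Summit pileup and background were solved from fold and p, which left at most 10 H3K27ac summits unsolved in a list, and levels were pileups divided by the lowest background. Summits of 1 region were joined. Regions sharing 1 bp were counterparts. Genes were the 21701 protein-coding genes with a unique symbol of 21755 in GENCODE vM21 (GRCm38). Promoters covered 2 kb around the starts of basic transcripts and windows 50 kb around the annotated 5′ end. With 1 library per mark and piece no test between pieces was possible and no p-value is given. Wilson and exact binomial 95% intervals cover counting error only. Python 3.11.15, numpy 2.4.6, pandas 2.3.3 and scipy 1.17.1 were used. The pileup solver, covered lengths, promoter states and covered length calls were tested on simulated data, and the other statistics were not. The members, the lists and the rule for named genes were chosen with earlier results of these data known. Every member is named. In the other lists, genes at the ends of the covered length difference or marked in 1 piece could be named. Not all such genes are named, and Vegfa and Acta2 are named outside this rule. Alternatives were thresholds, windows, lists of equal size, scaled lengths and overlap rules.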

Additional observations from a re-analysis of the deposited data

How the results depend on the processing

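No paired analysis was possible because each mark and piece had 1 library, and for the same reason no library could be left out. Of 108 values of a comparison under alternatives, 84 stayed within the spread allowed and 24 moved. With fold at least 3, 1 promoter was marked with H3K27ac in DFL alone and 10 in both pieces. Those marked in PFL alone were then Sox18, Tek, Eng, Notch4, Lyve1 and Lyl1. Sox17, Flt4, Esam, Robo4 and Dll4, in PFL alone before, had no H3K27ac region at the promoter in either piece. More H3K27ac within 50 kb was found at 1 gene in DFL and 4 in PFL. At this fold 2 promoters carried H3K27me3 in DFL alone, 2 in PFL alone and 2 in both. More H3K27me3 was found at 1 gene in DFL and 3 in PFL. The same setting turned round the DFL minus PFL H3K27ac length at Robo4 (166 bp) and Egfl7 (640 bp) and the H3K27me3 length at Kdr (1413 bp), Flt1 (31 bp) and Flt4 (869 bp). With −log10 q at least 5, 1 promoter was marked with H3K27ac in DFL alone. More H3K27ac in DFL was found at 0 genes within 20 kb, 1 within 100 kb and 1 at a threshold of 2 times. More H3K27ac in PFL was found at 5 genes at 2 times and 4 with PFL lengths scaled. More H3K27me3 in PFL was found at 6 genes with lists of equal size, 5 at 2 times and 1 with PFL lengths scaled, where 1 gene had more in DFL. Without regions common to 6 lists, 1 promoter carried H3K27me3 in DFL alone. At 2 times, 1 promoter had a higher H3K27ac level in PFL. Within 20 kb, 1.32% of PFL CTCF sites were in PFL alone. With the HOX13 summit required inside the H3K27ac region, 16.8% lay in DFL and 22.6% in PFL regions. The causes of these changes were not tested. Of the values of single genes, 163 kept their direction and call, 73 kept their direction without the call and 5 turned round. Sox18 was marked in PFL alone in 7 of 7 settings, Ptprc, Esam and Robo4 kept their state in 6, Tie1, Flt4 and Dll4 in 5, Sox17 in 4 and Gata2 in 3. Depth limits the weak promoters most, since no H3K27ac summit under 25 fragments in DFL or 24 in PFL was listed.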

Other observations

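Of 10 pericyte and smooth muscle genes, 0 passed the covered length rule in either direction, while several had a lower promoter level in DFL. Kcnj8 went the other way, marked in DFL alone at a level of 5.44, with 1597 bp covered in DFL and 1028 bp in PFL. Tagln was near equal, at 4.08 in DFL and 4.29 in PFL. Acta2, smooth muscle actin, stood at an H3K27ac level of 2.24 in DFL and 10.02 in PFL, and the covered length around it was 941 bp in DFL against 1695 bp in PFL. Cspg4, the pericyte proteoglycan NG2, stood at 8.41 in DFL and 14.5 in PFL, and Mcam, an adhesion molecule of endothelium and pericytes, at 5.20 in DFL and 8.84 in PFL. Pdgfrb, the receptor that draws pericytes to vessels, stood at 17.7 in DFL and 18.2 in PFL, and its ligand gene Pdgfb, which endothelial cells express, at 2.56 in DFL and 5.39 in PFL. Over the 7 mural genes with a level in both pieces the median log2 ratio was −0.76, against −0.15 over all genes. Kcnj8 has no ratio and is left out of this median.

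Regions found in 1 piece differed in their overlap with HOX13. Near the 35 genes, 13 of 38 DFL-alone H3K27ac regions and 4 of 82 PFL-alone regions overlapped a HOXA13 or HOXD13 region. Over the whole lists 5206 of 15994 DFL-alone regions and 3319 of 26481 PFL-alone regions did. Near the 11 blood genes, 53.1% (36.4 to 69.1%) of 32 HOX13 regions lay in a DFL H3K27ac region and 46.9% (30.9 to 63.6%) in a PFL one, against 28.3% and 26.8% of all HOX13 regions. Of the 32, 10 lay in the window of Lyl1, most of them in the neighbouring genes Nfix and Ier2.

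The strongest HOX13 regions within 50 kb of the 11 blood genes stood upstream of Ptprc, with summits at −28996 bp and a level of 30.1 for HOXA13 and at −28986 bp and 26.8 for HOXD13. A DFL H3K27ac region of 957 bp lay close by, with its summit at −30363 bp and a level of 5.60, and its PFL counterpart of 210 bp had a level of 2.105.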
